A study of Mus musculus with 24 samples.

Results

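Liver RNA of C57BL/6 mice that overexpressed L2d13 was compared with liver RNA of wild-type (WT) mice within set 2, the libraries whose sample names carry the digit 2. The comparison holds 12 of the 24 libraries of the study, 6 L2d13 and 6 WT, assigned by these names and by no measured value. It was itself chosen with earlier results of these data known. The other 12 libraries, 6 per genotype, carry the digit 4 and are called set 4. The labels give neither the meaning of the digit nor the age or sex of the mice, nor the promoter or cell type that drives the overexpression, and no treatment is named in either genotype. The running numbers in the sample names do not overlap between the genotypes, so genotype cannot be told apart from whatever these numbers follow. Nothing states that each library came from a different animal, so the p-values speak only of how far these samples scatter, and part of that scatter may be technical.

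L2d13 stands for L2 delta13 in the labels. Such a name has been given to a spliced variant of lysyl oxidase-like 2 (Loxl2) in which exon 13 is missing; what L2 means is not written in the labels. Lysyl oxidases are secreted copper enzymes that oxidise lysines of collagen and elastin and so start their crosslinking. They are made, folded and given their sugars in the endoplasmic reticulum, as are the plasma proteins that hepatocytes secrete in bulk. When folding demand rises, the sensors Ire1, Perk and Atf6 switch on the unfolded protein response, which raises the chaperones of the reticulum and the machinery that returns misfolded proteins to the cytosol for degradation. The liver also takes up, makes and burns fatty acids, stores glycogen, makes bile acids and clears foreign compounds, and in mice it secretes the major urinary proteins that carry pheromones.

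Expression was given as FPKM, fragments per length of transcript and per total of mapped fragments, so a level can be compared between genes, and all differences were taken on the log2(FPKM + 1) scale, L2d13 minus WT, with their standard error (SE). Values of a group are given as the lowest, the median and the highest of its 6 libraries, in that order. A gene is called when its adjusted p from limma was under 0.05 over the 10532 genes tested, and only called genes are said to rise or fall. Read totals are not known from FPKM. The FPKM that 1 fragment is worth can be set side by side for the libraries, since low values come in steps: it was 1.09 in L2d13 replicate 3 and 1.26 in WT replicate 6, relative to all libraries, and 0.95 to 1.01 in the other 10. The same 2 libraries held the most genes with an FPKM of at least 1, 11371 and 10713 against 9809 to 10357, and had the lowest median correlation with their own group, 0.939 and 0.94 against 0.973 to 0.989. They are called the 2 libraries that stand apart, and counts are given with and without them. The major urinary proteins took 5.31% to 10.6% of the summed FPKM in L2d13 and 11.2% to 22.8% in WT.

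Loxl2 was looked at first. That L2 means Loxl2 was read in part from the values below, so they are no independent check of the labels. Loxl2 had an FPKM of 1.22, 1.66 and 2.26 in L2d13 and 0.51, 0.815 and 1.26 in WT, a log2 difference of 0.57 ± 0.12 (SE, n = 6 per group; limma adjusted p = 0.00265; exact permutation p = 0.00433, two-sided). All but the lowest L2d13 library lay above every WT library. Far larger was Gm21451, a predicted gene whose transcript of 2775 bases shares an identical stretch of 2348 bases with Loxl2: its FPKM was 40.6, 172 and 223 in L2d13 and 0.03, 0.155 and 1.27 in WT, a log2 difference of 6.68 ± 0.31 (adjusted p = 3.52e-13; exact permutation p = 0.00216, the smallest that 6 against 6 can give). The 6 L2d13 libraries were above all 6 WT libraries. Reads from such near-identical sequences can be assigned to either gene, so the division between Loxl2 and Gm21451 is uncertain. The other lysyl oxidases, Lox, Loxl1, Loxl3 and Loxl4, were not tested, since fewer than 6 of the 24 libraries reached an FPKM of 1. The most abundant of them, Loxl4, had an FPKM of 0.78, 1.10 and 2.69 in L2d13 and 0.37, 0.52 and 0.63 in WT, without overlap.

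Of the 10532 genes tested, 1588 (15.1%) were called, 1364 of them higher in L2d13 (13.0% of those tested) and 224 lower (2.13%). Most differences were small: 388 of the higher and 157 of the lower genes changed by at least 1.5-fold, and 71 and 69 by at least 2-fold. The groups did not overlap at all for 632 genes (6.00% of those tested), of which 578 were called. The excess of higher genes depended on the scale used. On FPKM as deposited 75.8% of all tested genes had a positive difference and their median was 0.16, while scaling the libraries by median-of-ratios factors brought the median to 0.02. Such factors set the typical gene to the same level in every library, so a median near 0 is built into this scaling. A shift of scale and a broad rise of many genes cannot be told apart by it. With that scaling 780 genes (7.41%) were called, 409 higher (3.88%) and 371 lower (3.52%). All 409 were among the 1364, and 222 of the 224 lower genes remained lower. The scaling lowered the median of all genes by 0.14, and the smaller rises below stand against that shift. Without the 2 libraries that stand apart 1508 genes (14.3%) were called, 1280 higher (12.2%) and 228 lower (2.16%), of which 1034 and 179 were shared with the calls over all libraries. Leaving out WT replicate 4 lowered the count to 972 called and 821 higher, and leaving out WT replicate 1 or L2d13 replicate 4 lowered the genes called lower to 146 or 148. These shares of all tested genes are the background for every list below: 13.0% higher and 2.13% lower on FPKM, and 3.88% and 3.52% with median-of-ratios scaling. Members counted as positive or as not overlapping stand against 75.8% and 6.00% on FPKM. A list whose share is near these values does not stand out from other genes. In bulk tissue, fewer cells of a type and less RNA per cell cannot be told apart.

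**Figure D1:**
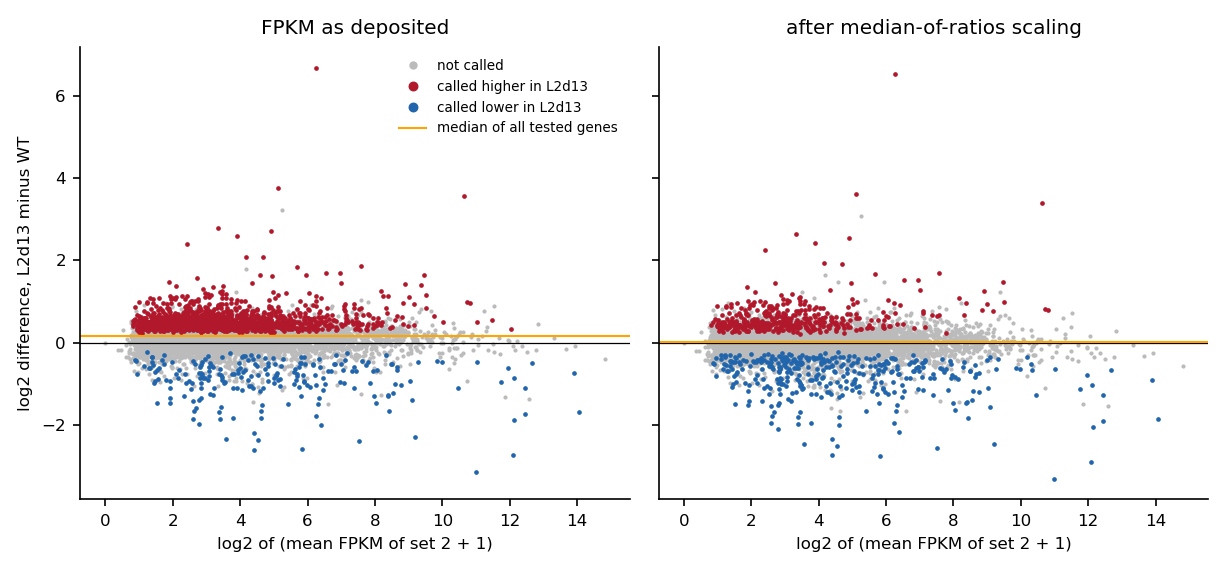
Each point is 1 of the 10532 genes tested, with its mean level in set 2 on the x axis (log2 of mean FPKM + 1) and its log2 difference, L2d13 minus WT, on the y axis, for FPKM as deposited (left) and after median-of-ratios scaling (right); called genes are coloured by direction and an orange line marks the median of all tested genes. The median is 0.16 on the left and 0.02 on the right, with 1364 genes called higher and 224 lower on the left and 409 and 371 on the right.

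Among genes other than predicted ones, the largest rise was that of Derl3, a membrane protein of the reticulum that helps to move misfolded proteins out for degradation. Its FPKM was 34.9, 43.4 and 167 in L2d13 and 1.16, 2.82 and 8.26 in WT, a log2 difference of 3.76 ± 0.44 (13.6-fold, adjusted p = 9.95e-06). The groups did not overlap, and the value of 167 came from L2d13 replicate 3. Without both libraries that stand apart the difference of Derl3 was 3.47. Apoa4, an apolipoprotein of triglyceride-rich particles, had 763, 2925 and 5320 against 170, 205 and 268 FPKM, a log2 difference of 3.57 ± 0.38 (adjusted p = 4.01e-06). Every L2d13 library held more Apoa4 than any WT library. Cidec, which fuses lipid droplets and favours their growth, had 19.6, 55.3 and 60.3 against 2.8, 5.92 and 12.5 FPKM (2.72 ± 0.35, adjusted p = 2.68e-05), again with no overlap.

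Lepr, the leptin receptor, had an FPKM of 8.96, 19.95 and 53.0 in L2d13 and 0.91, 2.09 and 7.61 in WT (2.58 ± 0.51, adjusted p = 0.00208), so that its lowest L2d13 library lay just above its highest WT library. Cgref1, a secreted calcium-binding protein, rose by 2.79 ± 0.24 (adjusted p = 1.06e-07) and Cntnap1, a contactin-associated membrane protein known from nerve, by 2.39 ± 0.26 (adjusted p = 4.01e-06). In both the 6 L2d13 libraries were above the 6 WT libraries, and replicate 5 was the lowest of the L2d13 libraries. Cyp17a1, an enzyme of steroid synthesis, had 15.5, 35.3 and 69.6 against 3.79, 6.33 and 21.8 FPKM (2.08 ± 0.37, adjusted p = 0.000741), and here the groups overlapped, with 3 L2d13 libraries above all WT libraries. Cyp2c69, which belongs to a cluster of similar genes and may share reads with them, rose by 2.09 ± 0.53 (adjusted p = 0.0111), with 4 of 6 L2d13 libraries above all WT libraries. Eif4ebp3, which binds the translation initiation factor eIF4E, had 172, 266 and 522 against 35.5, 85.6 and 109 FPKM (1.86 ± 0.30, adjusted p = 0.000318) without overlap. The remaining leading rises, Sdf2l1, Manf and Creld2, were luminal proteins of the reticulum and are described with its chaperones.

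**Figure D2:**
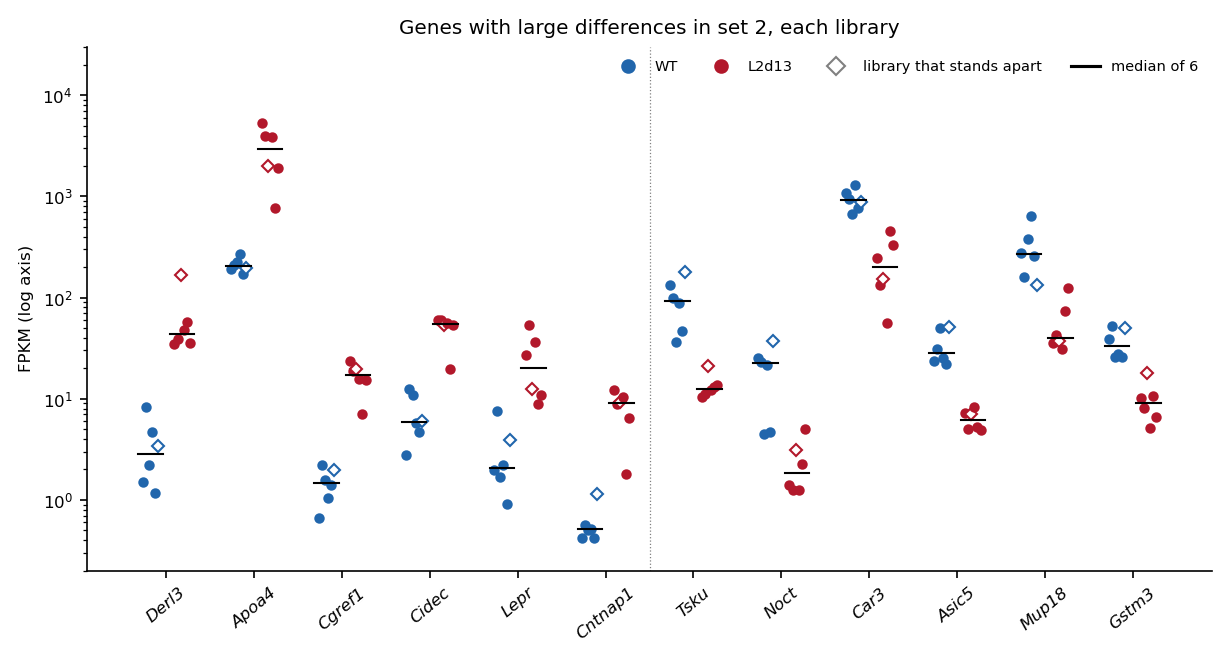
Points are the FPKM of single libraries on a log axis for 6 genes with a large rise (left of the dotted line) and 6 with a large fall in L2d13, in 6 WT and 6 L2d13 libraries; black bars mark medians and open diamonds the 2 libraries that stand apart. The groups separate fully for all genes shown but Noct, and the diamond of Derl3 at 167 FPKM is L2d13 replicate 3.

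Major urinary proteins were among the largest falls. Mup17 had the largest of those named, with 105, 395 and 1211 FPKM in L2d13 against 1047, 2920 and 7091 in WT, a log2 difference of -3.13 ± 0.74 (adjusted p = 0.00669). Mup15 (-2.73 ± 0.61), Mup18 (-2.39 ± 0.48) and Mup14 (-1.89 ± 0.52, adjusted p = 0.0175) fell as well. Mup14 was the least stable of these: without WT replicate 4 its difference was -1.59 and it was not called, nor was it in the set 2 libraries alone. These genes are near-identical copies of each other, so the division of reads among them is uncertain. Tsku, a secreted protein of the leucine-rich repeat family, had 10.4, 12.6 and 20.9 against 36.8, 93.4 and 181 FPKM (-2.59 ± 0.33, adjusted p = 2.19e-05). All L2d13 values of Tsku were below all WT values.

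Noct, nocturnin, a phosphatase whose RNA cycles over the day in liver, had an FPKM of 1.24, 1.84 and 5.02 in L2d13 and 4.46, 22.5 and 37.3 in WT (-2.35 ± 0.39, adjusted p = 0.000457), with 5 of 6 L2d13 libraries below every WT library. Car3, an abundant carbonic anhydrase of liver, muscle and fat, had 56.0, 200.5 and 453 against 664, 915 and 1293 FPKM (-2.29 ± 0.38, adjusted p = 0.000451) without overlap. Asic5, an ion channel of bile duct and brain, had 4.89, 6.15 and 8.22 against 22.0, 28.2 and 51.0 FPKM (-2.20 ± 0.32, adjusted p = 9.58e-05), again without overlap. Hsd3b2, of the family of 3-beta-hydroxysteroid dehydrogenases, fell by 1.85 ± 0.23 on the log2 scale (adjusted p = 1.28e-05) and Cyp2c70, the enzyme behind the muricholic acids found in mouse bile, by 2.0 ± 0.40 (adjusted p = 0.00224). The groups did not overlap for Hsd3b2, and for Cyp2c70 4 of 6 L2d13 libraries were below all WT libraries. Bglap3, of the osteocalcin gene cluster, had 0.16, 4.97 and 25.3 against 14.4, 29.1 and 52.2 FPKM (-2.60 ± 0.68, adjusted p = 0.0126), with overlap in 2 L2d13 libraries.

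Of the 35 genes in the list of endoplasmic reticulum chaperones and degradation, 35 were tested, 19 rose (54.3%, beside 13.0% of all tested genes) and 0 fell. Their median difference was 0.61 beside 0.16 for all genes, 32 of the 35 were positive, and 12 (34.3%) had groups that did not overlap, beside 6.00% of all genes. With median-of-ratios scaling 13 rose and the median was 0.44, without both libraries that stand apart 19 rose, and leaving out any 1 library of set 2 gave 18 to 20. The element in promoters through which Atf6 and its partner NF-Y act is the ER stress response element, which reads CCAAT, then 9 bases of any kind, then CCACG, or CGTGG, 9 bases and ATTGG on the other strand. RefSeq promoter windows of GRCm38.p6, from 250 bases before to 50 after a start, were searched on both strands. The element was found in 8 of the 16 genes that rose and had a window (50%) and in 2 of the 15 not called (13.3%), Canx and Ero1b. Of all 27025 genes with a window it was in 37 (0.137%), and of the 8500 tested in 16 (0.188%). The response that acts through this element raises such chaperones, so the choice of the list alone can set its share above these. Outside the list 6 tested genes held it, and of these Acacb (0.76 ± 0.18), Hnrnpa3 (0.36 ± 0.10, adjusted p = 0.0186) and Alg12 (0.52 ± 0.18, adjusted p = 0.0474) rose, the last pair chosen after their values were seen. Hnrnpa3 was not called with median-of-ratios scaling, and Alg12 neither with it nor in 10 of the 12 fits that left out 1 library. A match is a run of letters and not a site shown to be bound, and the absence of one says only that these letters are not in the window. The bases before the start of the 5 genes below with the element and the smallest p are shown because 3 of them are the main luminal chaperones and 2 led the rises. Each is written 5′ to 3′ on the strand of its gene, and capitals mark the element on either strand, which Hsp90b1 holds in 2 places.
Hspa5 (chr2:34771840-34772089, + strand): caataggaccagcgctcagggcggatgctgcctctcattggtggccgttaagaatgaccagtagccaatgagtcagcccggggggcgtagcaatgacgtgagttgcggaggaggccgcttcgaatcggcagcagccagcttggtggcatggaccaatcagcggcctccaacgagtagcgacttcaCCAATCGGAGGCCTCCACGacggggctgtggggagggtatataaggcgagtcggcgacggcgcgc
Hsp90b1 (chr10:86705445-86705694, - strand): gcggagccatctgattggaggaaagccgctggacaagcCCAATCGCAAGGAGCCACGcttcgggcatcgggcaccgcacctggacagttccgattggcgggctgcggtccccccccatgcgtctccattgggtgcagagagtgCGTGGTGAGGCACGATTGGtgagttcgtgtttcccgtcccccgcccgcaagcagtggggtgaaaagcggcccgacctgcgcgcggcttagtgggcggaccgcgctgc
Calr (chr8:84846932-84847181, - strand): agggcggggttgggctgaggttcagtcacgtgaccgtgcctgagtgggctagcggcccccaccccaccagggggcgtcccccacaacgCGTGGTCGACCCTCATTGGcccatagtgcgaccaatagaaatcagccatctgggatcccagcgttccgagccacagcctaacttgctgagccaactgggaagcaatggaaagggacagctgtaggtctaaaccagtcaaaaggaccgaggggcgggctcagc
Derl3 (chr10:75893148-75893397, + strand): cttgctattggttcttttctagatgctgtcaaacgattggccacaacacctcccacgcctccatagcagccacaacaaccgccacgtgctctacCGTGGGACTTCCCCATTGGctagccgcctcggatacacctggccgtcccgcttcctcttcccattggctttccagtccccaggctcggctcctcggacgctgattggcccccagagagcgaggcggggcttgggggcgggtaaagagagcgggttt
Creld2 (chr15:88819396-88819645, + strand): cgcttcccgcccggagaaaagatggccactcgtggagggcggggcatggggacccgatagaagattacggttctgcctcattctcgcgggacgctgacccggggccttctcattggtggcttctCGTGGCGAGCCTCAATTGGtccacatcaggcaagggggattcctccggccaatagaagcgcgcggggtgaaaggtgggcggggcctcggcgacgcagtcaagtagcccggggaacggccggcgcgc

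Of the chaperones that hold nascent chains, Hspa5, Hsp90b1 and Calr rose, while Canx, the membrane-bound partner of Calr, was not called (0.61 ± 0.26, adjusted p = 0.106). Hspa5, the Hsp70 of the lumen known as BiP, had 718, 1000 and 1413 FPKM in L2d13 and 185, 358 and 523 in WT, a log2 difference of 1.65 ± 0.25 (3.14-fold, adjusted p = 0.000169). Hsp90b1, the Hsp90 of the lumen, had 580, 656 and 839 against 193, 262 and 330 FPKM (1.42 ± 0.16, adjusted p = 6.1e-06). Calr, the lectin chaperone calreticulin, had 531, 609 and 672 against 248, 296 and 388 FPKM (0.97 ± 0.12, adjusted p = 9.95e-06). For Hspa5, Hsp90b1 and Calr every L2d13 library was above every WT library. Of the co-chaperones and nucleotide exchange partners of Hspa5, Sdf2l1 rose by 1.83 ± 0.25 (60.7, 73.6 and 95.8 against 11.9, 16.3 and 40.9 FPKM, adjusted p = 6.56e-05), Hyou1 by 1.20 ± 0.23 (adjusted p = 0.00168) and Dnajb11 by 0.92 ± 0.15 (adjusted p = 0.000333). None of these overlapped between the groups. Dnajc3, a further co-chaperone, had 41.3, 67.3 and 80.1 against 25.2, 42.5 and 49.4 FPKM (0.73 ± 0.21, adjusted p = 0.0207), was not called with median-of-ratios scaling and was not called without WT replicate 1, at 0.66.

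Manf, a secreted factor kept in the lumen by Hspa5, had an FPKM of 116, 130.4 and 184 in L2d13 and 27.8, 38.9 and 66.5 in WT (1.70 ± 0.24, adjusted p = 6.98e-05). Creld2, a luminal disulfide isomerase-like protein, had 149, 176 and 271 against 29.7, 57.0 and 100.2 FPKM (1.69 ± 0.29, adjusted p = 0.000589). The groups were apart in both. Of the disulfide isomerases, which join and reshuffle cysteines, Pdia4 rose by 1.45 ± 0.18 (adjusted p = 1.76e-05) and Pdia6 by 0.90 ± 0.18 (adjusted p = 0.00253). Sel1l, the scaffold of the main degradation complex, rose by 0.78 ± 0.14 with 39.96, 42.5 and 48.9 against 16.9, 26.1 and 29.4 FPKM (adjusted p = 0.000975), and Syvn1, its ubiquitin ligase, by 1.0 ± 0.28 (adjusted p = 0.0184). All L2d13 values of Sel1l lay above the WT values, while 3 of the 6 did for Syvn1, whose call was lost with median-of-ratios scaling and in a fit to the set 2 libraries alone. Herpud1, which works with that ligase, had 144, 171 and 261 against 137, 244.5 and 421 FPKM (-0.38 ± 0.26, adjusted p = 0.33).

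**Figure D3:**
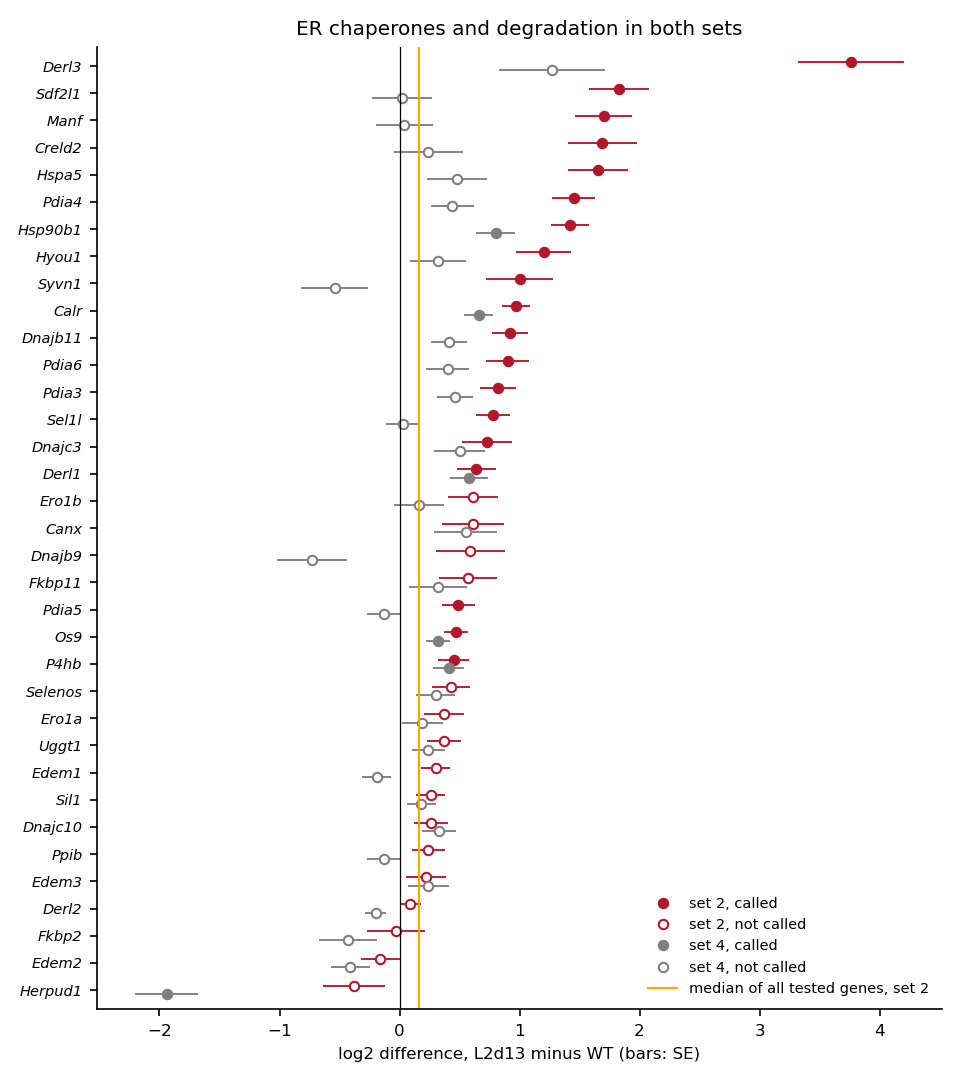
Points are log2 differences, L2d13 minus WT, with bars of 1 SE (6 libraries per group), for the 35 genes of the list in set 2 (red) and set 4 (grey); filled points are called, and an orange line marks the median of all tested genes in set 2, 0.16. In set 2 19 points are filled, all to the right of that line, while in set 4 Sdf2l1 and Manf lie at 0.02 and 0.04 and Herpud1 at -1.94.

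The same genes were compared with set 4, which shares no library with set 2 and in which 1403 genes (13.3%) were called. Of its list of reticulum genes 5 rose and 1 fell in set 4, with a median of 0.24. The difference between the sets was itself called for 16 genes of 10532 (0.152%), 13 positive and 3 negative, and 2 of these are in the list: Sdf2l1, with 1.83 in set 2 and 0.02 in set 4 (difference 1.81 ± 0.36, adjusted p = 0.0368), and Manf, with 1.70 and 0.04 (difference 1.66 ± 0.34, adjusted p = 0.0368). For Hspa5 the differences were 1.65 and 0.48, for Derl3 3.76 and 1.27 and for Herpud1 -0.38 and -1.94, and the difference between the sets was not called (adjusted p = 0.308, 0.157 and 0.11). Leaving out L2d13 replicate 1, 2 or 4 or WT replicate 3 or 5 of set 2 lowered the 16 genes to 8, 9, 8, 9 and 6. The call of a gene for this difference, here and below, may therefore depend on 1 library.

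Of the 14 sensors and regulators of the unfolded protein response and of the Creb3 family, 5 rose (35.7%, beside 13.0% of all tested genes) and 0 fell (median 0.30, 3 rising with median-of-ratios scaling). Parp16, a tail-anchored enzyme of the reticulum that modifies the sensors Perk and Ire1, had 13.2, 19.7 and 27.3 FPKM in L2d13 and 6.61, 10.9 and 14.0 in WT (0.86 ± 0.17, adjusted p = 0.00204). In set 4 it fell by 1.16, and the difference between the sets was 2.03 ± 0.24 (adjusted p = 0.000142). Creb3l2, a factor cleaved in the Golgi to raise secretory genes, had 3.69, 4.4 and 6.13 against 1.74, 2.46 and 2.86 FPKM (0.70 ± 0.12, adjusted p = 0.000752), fell by 0.55 in set 4 and differed between the sets by 1.25 ± 0.18 (adjusted p = 0.00113). Creb3 rose by 0.54 ± 0.11 (adjusted p = 0.00292) and Atf6b, a relative of Atf6, by 0.41 ± 0.11 (adjusted p = 0.0112), the latter not with median-of-ratios scaling. Xbp1, the factor that Ire1 splices, had 67.6, 89.3 and 108 against 44.6, 63.7 and 78.1 FPKM and was just not called (0.48 ± 0.17, adjusted p = 0.0527). Spliced and unspliced Xbp1 cannot be told apart in a gene table.

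In the list of translocation into the reticulum and transport out of it, 12 of 42 genes rose (28.6%, beside 13.0% of all tested genes) and 0 fell (median 0.33). With median-of-ratios scaling 2 of the 42 rose, a share near the 3.88% of all genes. Srp54a, a subunit of the signal recognition particle, had 14.7, 18.9 and 20.97 FPKM in L2d13 and 9.84, 11.2 and 14.1 in WT (0.67 ± 0.11, adjusted p = 0.000412). Sec24c, a coat subunit that picks cargo, had 27.8, 30.4 and 33.4 against 15.6, 20.6 and 22.8 FPKM (0.59 ± 0.11, adjusted p = 0.000975). Neither overlapped between groups and both were also called with median-of-ratios scaling. Sec13 (0.48 ± 0.10) and Mcfd2, a cargo receptor of clotting factors (0.56 ± 0.14), were called on FPKM but not with that scaling or quantile normalization. In the list of the integrated stress response under Atf4, 3 of 21 rose and 1 fell (median -0.04), and 0 fell without WT replicate 1. Trib3, a pseudokinase target of this response, had 5.96, 7.01 and 11.9 against 1.86, 3.29 and 6.38 FPKM (1.0 ± 0.22, adjusted p = 0.00412). Of 21 cytosolic and mitochondrial heat shock proteins 3 rose (median 0.33), and 1 did with median-of-ratios scaling or without L2d13 replicate 1, 4 or 5 or WT replicate 1. That 1 was Hspe1, the mitochondrial co-chaperonin, on the scaled values: its FPKM was 215, 237 and 280 against 109, 131 and 181 (0.84 ± 0.13, adjusted p = 0.000281), without overlap.

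**Figure D4:**
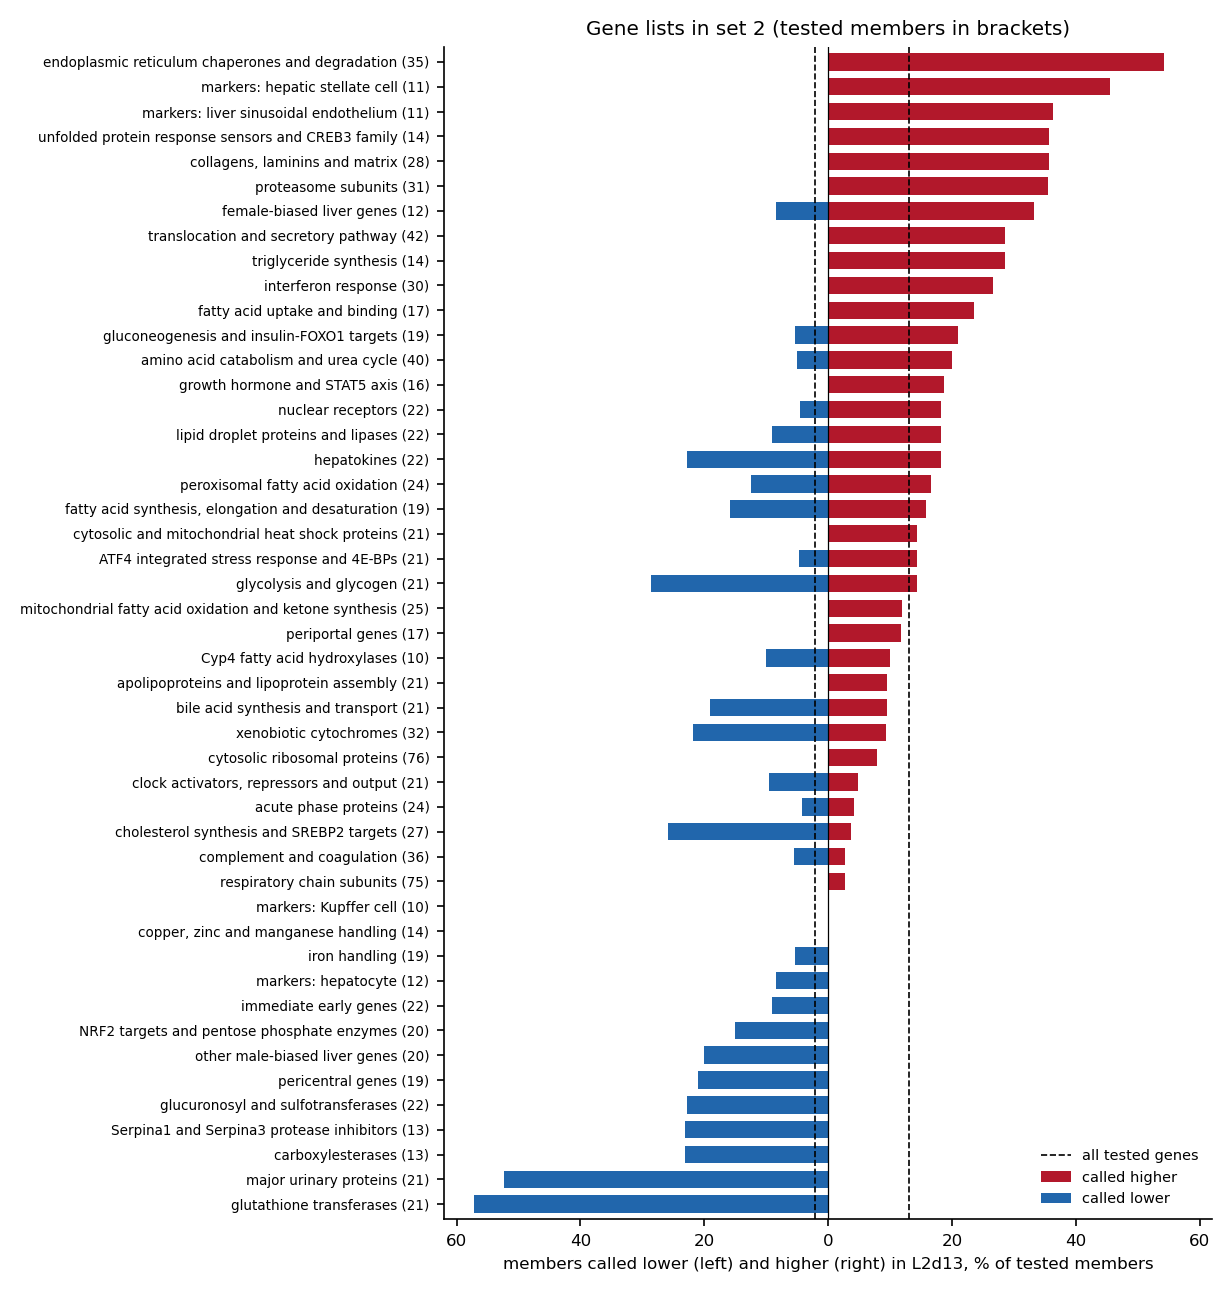
Bars give the share of tested members called higher (right) or lower (left) in L2d13 for the gene lists with at least 10 tested members, in % of tested members, and dashed lines the shares among all 10532 genes, 13.0% and 2.13%. The list of reticulum chaperones and degradation reaches 54.3% on the right and the glutathione transferases 57.1% on the left.

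Of 21 apolipoprotein and lipoprotein assembly genes 2 rose (9.52%, below the 13.0% of all tested genes) and 0 fell (median 0.07). Beside Apoa4 this was Apoc2, the cofactor of lipoprotein lipase, with 301, 381 and 578 FPKM in L2d13 and 101, 149 and 363 in WT (1.26 ± 0.27, adjusted p = 0.00315), and 4 of 6 L2d13 libraries lay above all WT libraries. Of 22 lipid droplet proteins and lipases 4 rose (18.2%, beside 13.0% of all genes) and 2 fell (9.09%, beside 2.13%), with a median of 0.20, and 2 and 3 did with median-of-ratios scaling. The falling genes were 0 without L2d13 replicate 4 or 5 or WT replicate 1, 4 or 6, and 1 without L2d13 replicate 1 or 2 or WT replicate 2. Pnpla2, the lipase that starts the breakdown of stored triglyceride, had 57.3, 86.1 and 92.5 against 47.4, 53.2 and 57.2 FPKM (0.58 ± 0.11, adjusted p = 0.00134), with the lowest L2d13 library just above the highest WT library. Plin3, a droplet coat protein, rose by 0.50 ± 0.13 (adjusted p = 0.0116), but not with median-of-ratios scaling nor in a fit to the set 2 libraries alone.

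Of 17 genes of fatty acid uptake and binding 4 rose and 0 fell (median 0.28; 2 and 2 with median-of-ratios scaling). Fabp2, the intestinal-type fatty acid binding protein, had 81.2, 115 and 139 FPKM in L2d13 and 40.4, 56.3 and 65.7 in WT (1.08 ± 0.14, adjusted p = 3.12e-05), without overlap. Fabp4, the fatty acid binding protein of fat cells and macrophages, had 12.9, 15.7 and 60.96 against 7.22, 7.93 and 19.4 FPKM (1.0 ± 0.26, adjusted p = 0.0124). Its highest value in each group was in the library that stands apart, and without both the difference was 0.87 and still called, while in a fit to the set 2 libraries alone it was not called. Summed adipocyte markers were 64.8 FPKM in L2d13 replicate 3 and 21.5 in WT replicate 6 against 7.51 to 20.8 in the other 10 libraries. Fabp4 is itself among these markers and made up 60.96 and 19.4 FPKM of the first 2 sums. The sum is therefore no measure of fat cells apart from Fabp4, and the part of fat cells in its rise was not tested. Slc27a1, a fatty acid transporter, rose by 0.78 ± 0.22 (adjusted p = 0.0178), but not with median-of-ratios scaling.

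Of 14 genes of triglyceride synthesis 4 rose and 0 fell (median 0.17), 1 did with median-of-ratios scaling, and 2 did without L2d13 replicate 3 or WT replicate 1, 2, 3 or 4. Agpat5, an acyltransferase of the pathway, had 2.75, 3.01 and 3.68 FPKM in L2d13 and 1.57, 2.24 and 2.52 in WT (0.41 ± 0.09, adjusted p = 0.00493). Agpat3, of the same family, rose by 0.48 ± 0.13 (adjusted p = 0.0153), but not with median-of-ratios scaling nor in the set 2 libraries alone. Of 19 genes of fatty acid synthesis, elongation and desaturation 3 rose and 3 fell (median -0.05). Elovl5, an elongase of polyunsaturated fatty acids, had 294, 454 and 567 against 139, 198 and 351 FPKM (1.13 ± 0.20, adjusted p = 0.00094). Acacb, the carboxylase whose product restrains fatty acid entry into mitochondria, rose by 0.76 ± 0.18 (adjusted p = 0.0059). The opposite direction was taken by Srebf1, the factor that drives fatty acid synthesis under insulin, with 4.43, 6.39 and 7.96 against 6.69, 13.3 and 25.6 FPKM (-0.91 ± 0.22, adjusted p = 0.00803). Elovl3, an elongase of very long chains with a strong daily rhythm in male liver, had 44.6, 122 and 345 against 197, 364 and 536 FPKM (-1.46 ± 0.37, adjusted p = 0.0111) and was not called in the set 2 libraries alone. In both the groups overlapped.

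Mitochondrial fatty acid oxidation and the making of ketones held 25 genes, of which 3 rose (12%, beside 13.0% of all tested genes) and 0 fell (median 0.27), 1 did with median-of-ratios scaling, and 7 and 6 did without L2d13 replicate 3 and without WT replicate 2. Cpt1a, the gate of fatty acid entry into mitochondria, had 166, 217 and 259 FPKM in L2d13 and 72.6, 123 and 165 in WT (0.84 ± 0.19, adjusted p = 0.00453), with the L2d13 libraries above all WT libraries. Acadl (0.42 ± 0.11) and Decr1 (0.62 ± 0.17), 2 enzymes of the pathway, were called on FPKM but not with median-of-ratios scaling. Of 24 peroxisomal genes 4 rose and 3 fell (median 0.27), and 0 and 3 did with median-of-ratios scaling. The number rising was 2 without L2d13 replicate 2 and 1 without WT replicate 4. Slc25a17, a carrier of the peroxisome membrane, had 13.7, 17.6 and 19.6 against 19.7, 22.9 and 25.7 FPKM (-0.39 ± 0.10, adjusted p = 0.0102). Cat, the catalase that breaks down hydrogen peroxide, fell by 0.45 ± 0.13 on the log2 scale, though not in the set 2 libraries alone. Ech1 rose by 0.39 ± 0.11 (adjusted p = 0.018), but was not called with median-of-ratios scaling. Among 10 Cyp4 fatty acid hydroxylases 1 rose and 1 fell (median 0.10), and 2 rose without L2d13 replicate 3, 5 or 6 or WT replicate 3 and 3 without WT replicate 2. Cyp4a10, a target of the fatty acid sensor Ppara, rose, with 1550, 2145 and 3002 against 713, 1218 and 1605 FPKM (0.98 ± 0.20, adjusted p = 0.00256), and Cyp4f14 fell by 0.94 ± 0.23 on the log2 scale (adjusted p = 0.00894).

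Genes of cholesterol synthesis mostly had negative differences. Of 27 genes of the pathway and targets of Srebp2, 1 rose and 7 fell (25.9%, beside 2.13% of all tested genes; median -0.26, 6 positive and 21 negative), 0 and 8 with median-of-ratios scaling, and 7 also fell without both libraries that stand apart. Without WT replicate 5 the falling genes were 4, and 0 rose without L2d13 replicate 1, 2, 3 or 4 or WT replicate 1, 2, 3, 4 or 6. Nsdhl, which removes methyl groups from the sterol ring, had 3.91, 4.63 and 6.17 FPKM in L2d13 and 8.12, 12.2 and 14.3 in WT (-1.09 ± 0.23, adjusted p = 0.00303). Insig1, which holds the sterol sensor in the reticulum, had 14.5, 25.6 and 30.4 against 31.9, 42.7 and 70.2 FPKM (-0.89 ± 0.20, adjusted p = 0.00524). Fdps, which makes farnesyl diphosphate, had 17.3, 21.4 and 25.5 against 26.3, 42.8 and 58.4 FPKM (-0.85 ± 0.24, adjusted p = 0.0203). In all 3 the highest L2d13 library was below the lowest WT library. In set 4, 10 of the list fell, with a median of -0.50, and 0 members differed between the sets. The sterol element TCACCCCAC was in the windows of 1 of the 19 listed genes that had one (5.26%) and of 0.765% of tested genes.

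Glycolysis and glycogen metabolism held 21 genes, of which 3 rose (14.3%, beside 13.0% of all tested genes) and 6 fell (28.6%, beside 2.13%; median -0.05; 1 and 6 with median-of-ratios scaling), with 3 falling without WT replicate 1 or 4. Ppp1r3b, which targets protein phosphatase to glycogen, had 9.6, 22.0 and 34.1 FPKM in L2d13 and 47.7, 57.7 and 79.6 in WT (-1.49 ± 0.22, adjusted p = 0.000109), without overlap. Gys2, the liver glycogen synthase, went the other way with 68.3, 94.7 and 157 against 45.0, 51.7 and 60.7 FPKM (0.89 ± 0.21, adjusted p = 0.00731), again without overlap. Pklr, the liver pyruvate kinase, had 16.7, 23.4 and 29.5 against 24.04, 41.9 and 57.1 FPKM (-0.78 ± 0.21, adjusted p = 0.0129), with 3 L2d13 libraries below all WT libraries. Of 19 genes of gluconeogenesis and of insulin signalling through Foxo1 4 rose and 1 fell (median 0.14), but 0 and 1 with median-of-ratios scaling, and the 4 became 1 without L2d13 replicate 2 and 2 without L2d13 replicate 4 or WT replicate 2, 4 or 6. The 1 that fell was not called without L2d13 replicate 1, 2, 4 or 5 or WT replicate 1, 2, 4 or 6.

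Bile acid synthesis and bile transport held 21 genes, of which 2 rose (9.52%) and 4 fell (19%), with a median of -0.17. Without L2d13 replicate 1, 2, 3, 4 or 5 or WT replicate 1, 2 or 4, 1 rose. Cyp8b1, the 12-alpha-hydroxylase that sets the share of cholic acid, had 589, 773 and 826 FPKM in L2d13 and 247, 381 and 520.7 in WT (0.94 ± 0.14, adjusted p = 0.000113), and its groups did not overlap. Cyp2c70, described above, fell. Abcg5, which with a partner exports sterols into bile, had 16.1, 19.2 and 49.0 against 28.8, 38.3 and 65.7 FPKM (-0.82 ± 0.21, adjusted p = 0.0116), and the value of 49.0 was of L2d13 replicate 3; in the set 2 libraries alone it was not called. Of 40 genes of amino acid catabolism and the urea cycle 8 rose and 2 fell (median 0.10), and 2 and 3 with median-of-ratios scaling. The rising genes were 5 without L2d13 replicate 4 or WT replicate 4 and 4 without WT replicate 1. Sdsl, a serine dehydratase-like enzyme, had 19.8, 24.2 and 31.2 against 11.4, 13.6 and 18.7 FPKM (0.78 ± 0.14, adjusted p = 0.00117). Mat1a, which makes the methyl donor S-adenosylmethionine, had 1598, 2300 and 3324 against 836, 1036 and 1998 FPKM (0.96 ± 0.20, adjusted p = 0.00302). Both were also called with median-of-ratios scaling, while Asl, the urea cycle lyase, rose by 0.84 ± 0.19 (adjusted p = 0.00484) but was not called with that scaling.

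Of 21 glutathione transferases, which couple glutathione to reactive molecules, 12 fell (57.1%, beside 2.13% of all genes) and 0 rose, with a median of -0.81. The same number fell with median-of-ratios scaling, 10 without both libraries that stand apart, and 7 without L2d13 replicate 4 or 6 or WT replicate 1. Gstm3 had 5.16, 9.13 and 17.9 FPKM in L2d13 and 25.9, 33.3 and 51.9 in WT (-1.84 ± 0.27, adjusted p = 0.000116). Gsta2 had 16.4, 22.8 and 30.7 against 38.5, 45.1 and 64.1 FPKM (-1.05 ± 0.18, adjusted p = 0.000607). For both every L2d13 library was below every WT library. The abundant Gsta3, with 300, 347 and 459 against 385, 727 and 864 FPKM (-0.94 ± 0.16, adjusted p = 0.000485), and Gstm1, with 701, 806 and 1191 against 1032, 1964 and 3322 (-1.11 ± 0.22, adjusted p = 0.00192), overlapped in 1 L2d13 library each. Members of this family are similar in sequence and may share reads. Gclc, the catalytic subunit that starts glutathione synthesis, had 37.0, 47.7 and 56.5 against 54.2, 100.5 and 145 FPKM (-1.02 ± 0.22, adjusted p = 0.00361). It was 1 of 3 that fell among 20 targets of Nrf2 and enzymes of the pentose phosphate pathway, with Tkt (-0.49 ± 0.13), and 0 rose (median -0.01).

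Of 32 cytochromes that act on foreign compounds 3 rose and 7 fell (median -0.23; 2 and 12 with median-of-ratios scaling), and 1 rose without WT replicate 4. Cyp1a2, a pericentral enzyme under the aryl hydrocarbon receptor, had 137, 188 and 243 FPKM in L2d13 and 342, 430.2 and 716 in WT (-1.29 ± 0.18, adjusted p = 8.94e-05). Cyp2a5 had 87.0, 143 and 230.2 against 268, 350.2 and 439 FPKM (-1.29 ± 0.24, adjusted p = 0.00138) and Cyp2c50 231, 271 and 425.7 against 446, 581 and 684 (-1.02 ± 0.17, adjusted p = 0.000373). None of the 3 overlapped between the groups. Cyp2c29, a target of the constitutive androstane receptor, had 188, 272 and 437 against 276, 827 and 1237 FPKM (-1.40 ± 0.28, adjusted p = 0.0023), with 3 L2d13 libraries below all WT libraries. Nr1i2, the pregnane receptor that induces many of these enzymes, fell too, with 25.2, 33.7 and 48.3 against 40.7, 54.6 and 95.2 FPKM (-0.71 ± 0.18, adjusted p = 0.0111), 5 L2d13 libraries being below all WT libraries.

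Of 22 glucuronosyl and sulfotransferases 5 fell (22.7%, beside 2.13% of all tested genes) and 0 rose (median -0.29), 7 fell with median-of-ratios scaling and 8 without both libraries that stand apart or without WT replicate 6, and 3 without L2d13 replicate 4. Ugt2b36 had 177, 199 and 234 FPKM in L2d13 and 271, 323 and 401 in WT (-0.66 ± 0.13, adjusted p = 0.00192). Ugt2b34 had 68.4, 79.1 and 90.7 against 121, 123 and 150 FPKM (-0.69 ± 0.15, adjusted p = 0.00304). Ugdh, which makes the sugar donor of these enzymes, had 34.1, 47.4 and 51.0 against 55.6, 61.9 and 81.8 FPKM (-0.49 ± 0.12, adjusted p = 0.00998). All L2d13 values were below all WT values for the 3 genes. Of 13 carboxylesterases 3 fell and 0 rose (median -0.26), 5 fell with median-of-ratios scaling or without WT replicate 6, and 1 without L2d13 replicate 2 or 4. Ces1f had 85.6, 121 and 145 against 150, 194 and 259 FPKM (-0.70 ± 0.15, adjusted p = 0.00302).

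Of the 21 major urinary protein genes 11 fell (52.4%, beside 2.13% of all tested genes) and 0 rose, and 20 of the differences were negative, with a median of -1.23. With quantile normalization or without both libraries that stand apart 8 fell, and 7, 7 and 6 did without L2d13 replicate 1, L2d13 replicate 4 and WT replicate 4. Mup19, the most abundant of those named, had 4676, 7447 and 13731 FPKM in L2d13 and 16435, 23716 and 36756 in WT (-1.69 ± 0.32, adjusted p = 0.00123), without overlap. Mup11 had 1223, 2429 and 4381 against 4374, 7279 and 14176 FPKM (-1.73 ± 0.39, adjusted p = 0.00522), and its highest L2d13 library lay just above its lowest WT library. In set 4 3 members fell, with a median of -0.55, and no member differed between the sets. Major urinary proteins are higher in male mice, under the pulses of growth hormone. Of 20 other male-biased liver genes 4 fell (20%, beside 2.13% of all tested genes) and 0 rose (median -0.29). Gstp1 was among those that fell, with 1812, 2136 and 3122 against 2180, 4873 and 6644 FPKM (-0.95 ± 0.22, adjusted p = 0.00548).

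Of 12 female-biased liver genes that were tested 4 rose (33.3%, beside 13.0% of all genes) and 1 fell (8.33%, beside 2.13%). Their median was 0.41, the counts were the same under median-of-ratios scaling, and 0 fell without L2d13 replicate 4 or WT replicate 6. Fmo2, a flavin monooxygenase, had 5.77, 12.8 and 26.3 FPKM in L2d13 and 3.24, 5.53 and 10.2 in WT (1.09 ± 0.28, adjusted p = 0.0108), with 3 L2d13 libraries above all WT libraries, and was not called in the set 2 libraries alone. Cyp17a1 and Cyp2c69, above, are also in that list. The sex of the mice is not given by the labels. Of 16 genes of the growth hormone axis 3 rose and 0 fell (median -0.00), 1 and 1 with median-of-ratios scaling, and 1 rose without L2d13 replicate 2 or 3 or WT replicate 3 or 5. Igfbp3, the main carrier of Igf1 in blood, had 11.4, 16.6 and 33.1 against 6, 7.52 and 16.8 FPKM (0.97 ± 0.22, adjusted p = 0.00458). The highest WT value of Igfbp3 was in WT replicate 6, and without both libraries that stand apart the difference was 0.98.

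Of 28 collagens, laminins and other matrix genes, the substrates and neighbours of lysyl oxidases, 10 rose (35.7%, beside 13.0% of all tested genes) and 0 fell (median 0.29). With median-of-ratios scaling 4 of the 28 rose, where 3.88% of all genes did, and 7 of the 28 rose without both libraries that stand apart. On FPKM as deposited the count was 5 without L2d13 replicate 3 or WT replicate 4 and 4 without WT replicate 1. Col4a1, a chain of the collagen of basement membranes, had 5.05, 6.97 and 12.6 FPKM in L2d13 and 2.45, 4.12 and 4.92 in WT (0.77 ± 0.17, adjusted p = 0.00436), without overlap. Col4a2, its partner chain, rose by 0.62 ± 0.15 (adjusted p = 0.00864), Nid1, which links that network to laminin, by 0.63 ± 0.16 (adjusted p = 0.00935) and Sparc, a collagen-binding protein, by 0.66 ± 0.17 (adjusted p = 0.012), although not in the set 2 libraries alone. The highest value of Col4a2 was 7.24 in L2d13 replicate 3, against 3.18 to 3.99 in the other L2d13 libraries. In set 4 0 of the list rose and 1 fell, with a median of 0.01.

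Markers of the cells that line and support the sinusoids were read beside these genes. Of 11 markers of sinusoidal endothelium 4 rose (36.4%, beside 13.0% of all tested genes). With median-of-ratios scaling 3 rose, and 3 without both libraries that stand apart. All 11 were positive (median 0.70), beside 75.8% of all genes (median 0.16). The summed FPKM of the 11 markers was 142 to 306 in L2d13 and 55.4 to 155 in WT, and 142 to 169 in L2d13 without replicate 3. Lyve1, a hyaluronan receptor of this endothelium, had 8.22, 11.7 and 17.9 against 2.33, 3.87 and 7.16 FPKM (1.34 ± 0.24, adjusted p = 0.000741), and Gpr182 12.2, 14.1 and 22.9 against 4.02, 6.41 and 9.51 (1.09 ± 0.24, adjusted p = 0.00398). Oit3 rose by 1.17 ± 0.30 (adjusted p = 0.0119). The 3 genes separated the groups fully. Of 11 markers of hepatic stellate cells, which store vitamin A and make matrix, 5 rose (45.5%, beside 13.0% of all tested genes). All 11 were positive (median 0.54), again beside 75.8% of all genes. With median-of-ratios scaling 2 rose and without both libraries that stand apart 4, and 2 rose without L2d13 replicate 2 or 3 or WT replicate 1 or 4, and 3 without L2d13 replicate 1 or 4. Their summed FPKM was 137 to 268 in L2d13 and 78.3 to 142 in WT. Lrat, which makes the retinyl esters these cells store, had 2.48, 2.96 and 4.14 against 1.06, 1.39 and 1.83 FPKM (0.75 ± 0.12, adjusted p = 0.000438), without overlap, and Colec11 rose by 0.61 ± 0.15 (adjusted p = 0.00859). The part of these cell types in the rise of the matrix genes was not tested.

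Of 12 hepatocyte markers 0 rose and 1 fell (median -0.12). Without both libraries that stand apart 1 rose and 0 fell, and with quantile normalization 2 rose and 0 fell. The summed FPKM of the list was 37838 to 68037 in L2d13 and 57766 to 72555 in WT, with both lowest sums in the libraries that stand apart. Of its members Apoa1, the main protein of high-density lipoprotein, had 9294, 10363 and 11752 against 7671, 9341 and 13666 FPKM (0.12 ± 0.17), Hnf4a, a master factor of hepatocytes, 87.2, 151 and 159 against 143, 174 and 194 (-0.32 ± 0.16) and Cyp2e1 3490, 4238 and 4882 against 3384, 5081 and 5986 (-0.19 ± 0.15). All 3 overlapped between the groups and were not called (adjusted p = 0.67, 0.176 and 0.417). At these levels the libraries hold the defining transcripts of the labelled tissue. Of 10 Kupffer cell markers 0 were called (median 0.30; sums 137 to 260.2 and 103 to 201 FPKM). Summed cholangiocyte markers were 143 FPKM in L2d13 replicate 3 and 86.2 in WT replicate 6 and 16.2 to 36.3 in the other 10 libraries, with 1 of 5 tested markers rising, but 0 without L2d13 replicate 6 or WT replicate 1, 3 or 4. L2d13 replicate 3 also held the highest sums of erythroid markers (3566 against 569 to 1411 FPKM), of T, B and NK cell markers (21.9 against 3.3 to 6.42) and of neutrophil and monocyte markers (30.1 against 7.69 to 12.9). Of these 3 lists 0 of 5, 0 of 2 and 0 of 4 tested markers were called. Exocrine pancreas markers summed to 146 FPKM in L2d13 replicate 1 and to 3.61 to 7.63 elsewhere, with 0 of 1 called, and skeletal muscle markers to at most 0.14.

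**Figure D5:**
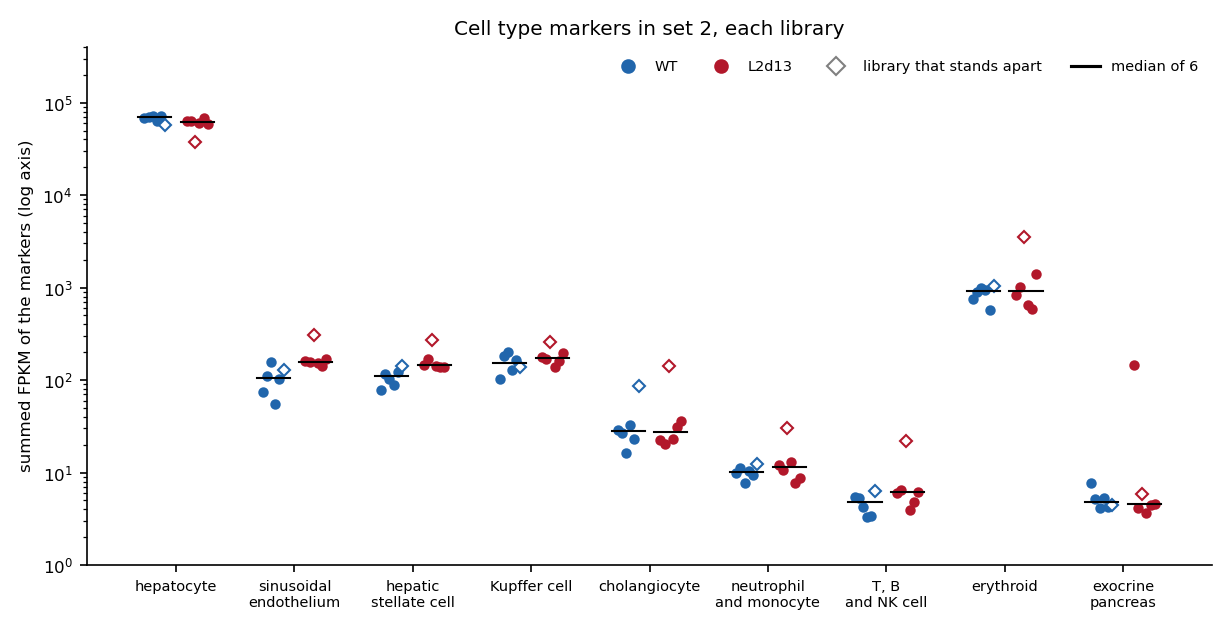
Points are the summed FPKM of the markers of 9 cell types in single libraries, on a log axis, for 6 WT and 6 L2d13 libraries, with medians as black bars and the 2 libraries that stand apart as open diamonds. Both diamonds lie above the other libraries for cholangiocyte markers, at 143 and 86.2 FPKM, and the L2d13 diamond is the lowest for hepatocyte markers.

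Of the 16 genes that differed between the sets, 5 were clock genes. Of 21 clock genes 1 rose and 2 fell in set 2 (median -0.19; 0 and 3 with median-of-ratios scaling), while 5 rose and 9 fell in set 4. The riser of set 2 was not called without L2d13 replicate 1 or 2 or WT replicate 1, 4 or 6. Nr1d1, a repressor of the clock known as Rev-erb alpha, had 3.2, 5.61 and 7.43 FPKM in L2d13 and 2.47, 4.15 and 22.8 in WT of set 2 (-0.11 ± 0.36) and differed by 3.0 in set 4. The difference between the sets was -3.11 ± 0.51 (adjusted p = 0.00541). Its relative Nr1d2 had -0.25 and 1.31 (difference -1.56 ± 0.27, adjusted p = 0.00982). Of the other clock genes of the list, Nfil3, a repressor of clock output, had 0.66 and -1.17 (difference 1.83 ± 0.34, adjusted p = 0.0212) and Cry1, a repressor of the clock, 0.09 and -0.91 (0.99 ± 0.20, adjusted p = 0.0368). None of these 4 genes was called in set 2. Per1, a period gene that also answers acute signals, had 1.26, 4.38 and 7.24 against 4.06, 11.9 and 20.98 FPKM in set 2 (-1.27 ± 0.33, adjusted p = 0.0111), though it was not called in the set 2 libraries alone, and fell by 1.03 in set 4. The time of day of sampling is not given by the labels. The E-box CACGTG was in the windows of 4 of 17 clock genes with a window (23.5%) and of 12% of tested genes, and the D-box TTATGTAA in 0 and in 0.729%.

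Outside the clock and the reticulum, Slc13a3, a carrier of dicarboxylates, also differed between the sets: it had 1.31, 2.18 and 3.3 FPKM in L2d13 and 3.4, 4.49 and 5.17 in WT of set 2 (-0.77 ± 0.14, adjusted p = 0.0011), against 0.19 in set 4 (difference -0.96 ± 0.20, adjusted p = 0.0417). Of the 1588 genes called in set 2, 651 (41%) were called in the same direction in set 4, which is 46.4% of its calls, and 3 in the opposite direction. Across all tested genes Pearson's r between the differences of the sets was 0.638, as a description over genes, which are not independent replicates. Among the leading genes Tsku differed by -2.59 in set 2 and -2.50 in set 4, Noct by -2.35 and -2.27 and Cyp17a1 by 2.08 and 2.07.

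Smaller groups complete the account. Of 30 interferon response genes 8 rose (26.7%, beside 13.0% of all tested genes) and 0 fell (median 0.33), and 4 rose with median-of-ratios scaling. In set 4, where 10.3% of all genes were called higher, 14 rose. Tap1, a peptide transporter of antigen presentation, had 8.31, 11.5 and 14.3 FPKM in L2d13 and 5.9, 6.51 and 8.13 in WT (0.70 ± 0.12, adjusted p = 0.000741), and Dhx58, an RNA sensor, 5.82, 7.09 and 9.44 against 3.16, 3.58 and 5.42 (0.77 ± 0.15, adjusted p = 0.00138). Neither overlapped between the groups. Oasl1 rose by 0.89 ± 0.22 and Ifi44 by 0.49 ± 0.12. Of 24 acute phase proteins 1 rose and 1 fell (median 0.04): Il1rn, the antagonist of interleukin 1, by 0.85 ± 0.19 (adjusted p = 0.00489) and Saa4 by -0.96 ± 0.24 (adjusted p = 0.0111). The falling genes were 2 without L2d13 replicate 3, 4, 5 or 6 or WT replicate 1, 3, 5 or 6. Of 36 complement and coagulation genes 1 rose (2.78%) and 2 fell (5.56%), with a median of -0.01, the riser being Pros1, the anticoagulant protein S (0.73 ± 0.13, adjusted p = 0.00111). The falling genes were 0 without L2d13 replicate 2 or 4 or WT replicate 1 or 4, and 1 without L2d13 replicate 1 or 3 or WT replicate 2 or 6. Of 13 Serpina1 and Serpina3 protease inhibitors 0 rose and 3 fell (median 0.11).

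Of 22 secreted hepatokines 4 rose and 5 fell (median -0.09; 1 and 5 with median-of-ratios scaling). The rising genes were 1 without L2d13 replicate 2 or 3 or WT replicate 3 or 5 and 2 without WT replicate 6, and the falling genes 3 without L2d13 replicate 2 or 4 or WT replicate 6. Gdf15, a stress hormone that lowers food intake, had 1.24, 2.76 and 5.31 FPKM in L2d13 and 3.2, 14.1 and 32.7 in WT (-1.68 ± 0.47, adjusted p = 0.0181), and Lect2 fell by 0.78 ± 0.21 on the log2 scale (adjusted p = 0.0149). The L2d13 values of Gdf15 overlapped the WT values in 2 libraries. Of 22 immediate early genes 0 rose and 2 fell (median -0.25), 1 fell without L2d13 replicate 1, 3, 4 or 5 or WT replicate 2, 5 or 6, and 4 did without WT replicate 3. Dusp6, a phosphatase that damps Erk signalling, had 4.61, 6.995 and 9.47 against 8.41, 16.6 and 36.2 FPKM (-1.10 ± 0.28, adjusted p = 0.0102). Of 22 nuclear receptors 4 rose and 1, Nr1i2, fell (median 0.25; 2 rose with median-of-ratios scaling or without WT replicate 4). Esr1, the estrogen receptor, had 2.33, 3.44 and 5.59 against 1.24, 1.68 and 2.04 FPKM (0.78 ± 0.17, adjusted p = 0.00442), and Rarb, a retinoic acid receptor, rose by 0.69 ± 0.15 (adjusted p = 0.00304).

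Of 6 carbonic anhydrases tested, 1 rose (16.7%, beside 13.0% of all tested genes) and 3 fell (50%, beside 2.13%), with a median of -0.60. Beside Car3, Car1 had 1.15, 2.77 and 3.61 FPKM in L2d13 and 4.28, 5 and 8.71 in WT (-0.97 ± 0.19, adjusted p = 0.00171) and Car8, a member that lacks enzyme activity, 6.48, 7.05 and 8.99 against 10.5, 11.5 and 14.4 (-0.64 ± 0.13, adjusted p = 0.00225). Car2 rose, with 4.93, 6.58 and 8.45 against 3.26, 3.57 and 4.2 FPKM (0.69 ± 0.12, adjusted p = 0.000577). The groups of all 4 were apart, Car3 included, which is 66.7% of the tested members beside 6.00% of all tested genes. Of 19 pericentral genes 0 rose and 4 fell (21.1%, beside 2.13% of all tested genes), with a median of 0.08. Among those that fell was Rgn, an enzyme of vitamin C synthesis, at 182, 254 and 373 against 427.6, 501 and 577 FPKM (-1.0 ± 0.15, adjusted p = 0.000129). Of 17 periportal genes 2 rose (11.8%, beside 13.0%) and 0 fell (median 0.13).

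In the core machineries few members were called after scaling. Of 76 cytosolic ribosomal proteins 6 rose and 0 fell (median 0.23), Rpl5 by 0.61 ± 0.16 (adjusted p = 0.0136), and 0 rose with median-of-ratios scaling; leaving out 1 library gave 2 to 9. Of 75 respiratory chain subunits 2 rose and 0 fell (median 0.17), and 0 rose with that scaling, 1 without L2d13 replicate 1, 5 or 6, and 4 and 5 without WT replicate 2 and 6. Of 31 proteasome subunits 11 rose (35.5%, beside 13.0% of all tested genes) and 0 fell (median 0.27). With that scaling 1 rose, and 7 did without L2d13 replicate 2 or WT replicate 4. Psmc3, an ATPase of the proteasome cap, had 78.8, 83.2 and 89.4 FPKM in L2d13 and 54.3, 63.2 and 69.7 in WT (0.39 ± 0.08, adjusted p = 0.00285) and was not called with that scaling. In set 4 18 proteasome subunits rose. Of 19 genes of iron handling 0 rose and 1 fell (median 0.08), and 0 fell without L2d13 replicate 4 or WT replicate 6 and 2 without L2d13 replicate 3 or WT replicate 4. Of 14 of copper, zinc and manganese handling 0 were called (median 0.07), of 5 cell cycle genes tested 1 rose and 0 fell (median -0.00), and of 2 genes at the leptin receptor locus 1, Lepr, rose (median 1.41). The cell cycle gene was not called with median-of-ratios scaling nor without L2d13 replicate 2, 4 or 5 or WT replicate 1, 2 or 4. In 11 lists with 0 members called in a direction, 1 was called without 1 of the libraries.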

How the data were processed

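Liver RNA was taken up in TRIzol and read on a BGISEQ-500 sequencer, per the labels' protocols. The authors deposited 1 table of FPKM for 18171 genes and 24 libraries, with 2 decimals. GRCm38.p5 is the genome build in the submitters' processing notes, which list RSEM, Bowtie2 and HISAT with no version. Which normalization lies behind the FPKM beyond length and total is not given in the sources used here. RefSeq's table of GRCm38.p6 gave a symbol for 18040 identifiers and none for 131. Columns of no sample: 0; no 2 libraries held identical values (0 pairs).

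A gene was tested when 6 or more of the 24 libraries reached an FPKM of 1, which left 10532. The log2(FPKM + 1) values were fitted with limma 3.58.1 in R 4.3.3 with 1 mean for each of the 4 groups of 6 libraries and variances that follow the mean, so that all groups share an estimate of the spread. The contrasts were L2d13 minus WT in set 2, the same in set 4 and the difference of these. Tests were two-sided, with Benjamini-Hochberg adjustment over all tested genes within a contrast and a threshold of 0.05. Folds were computed from the log2 differences, and the added 1 makes them understate changes of low genes. Loxl2 and Gm21451 were also tested by exact permutation over the 924 arrangements of 6 against 6. The value of 1 fragment came from 195 low genes, of whose values 90.9% lay within 0.2 of whole multiples. The median-of-ratios factors used the 8775 genes that reached an FPKM of 1 in every library. Transcript sequences of Loxl2 and Gm21451 came from GENCODE M21.

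The comparison and the 58 gene lists (47 of pathways and 11 of cell types) were chosen with earlier results of these data known. The rule for naming genes took the 12 largest rises and the 12 largest falls among called genes whose mean reached an FPKM of 1 in the genotype where it is higher, the 4 called members of a list with the smallest p and up to 2 more, and the 5 largest differences each way between the sets, passing over predicted genes. Genes named in a list only, whose call was lost when 1 library was left out, are counted and not named, apart from Dnajc3; this limit was added after their values were seen. Some genes chosen by the rule are not reported here, and none took their place. On simulated data with 10457 genes, 55% of genes changed 1.5-fold and 91% of those changed 2-fold were found in set 2, and 8 unchanged genes were called. The changed genes were drawn from those with a mean log2(FPKM + 1) above 2. The noise was normal and independent between libraries, with no shift of scale and no library that stands apart. These values therefore hold for that setting and not for the deposited data. Other steps used Python 3.11.15 (scipy 1.17.1, pandas 2.3.3 and numpy 2.4.6), and matplotlib 3.10.9 drew the plots.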

Additional observations from a re-analysis of the deposited data

Results flagged for a closer look

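A library was set apart when its gap to the nearest other library of its group of 6 exceeded, as a share of the range of the group, Dixon's critical value at the 95% level, which chance alone gives in about 1 of 20 groups. Among the 286 groups of the 143 genes examined this happened 33 times, 14 of them in L2d13 replicate 3 and 10 in WT replicate 6, the 2 libraries that stand apart. In L2d13 replicate 3 the highest values of the group were those of Derl3 (167 FPKM), Fabp4 (60.96), Abcg5 (49.0), Gstm1 (1191), Nfil3 (61.3), Gpr182 (22.9), Oit3 (25.1), Colec11 (57.2), Col4a2 (7.24), Loxl1 (1.43) and Loxl3 (2.13), and the lowest those of Dnajc3 (41.3), Sec13 (38.5) and Canx (54.5). In WT replicate 6 the highest were those of Cntnap1 (1.14), Fabp4 (19.4) and Igfbp3 (16.8), and the lowest those of Cyp2c70 (49.98), Sec24c (15.6), Mcfd2 (57.8), Cyp4f14 (31.8), Cat (766), Rpl5 (109) and Canx (21.4).

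L2d13 replicate 5 was low for Cgref1 (7.13 FPKM), Cidec (19.6), Cntnap1 (1.81) and Acacb (5.15) and high for Creld2 (271). WT replicate 2 was low for Eif4ebp3 (35.5 FPKM) and high for Creb3 (27.9) and Ugt2b34 (149.8). WT replicate 5 was high for Gm21451 (1.27 FPKM).

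The genotype difference in set 2 minus that in set 4 passed its own limma test for 9 of the genes named. It was positive for Parp16 (2.03), Nfil3 (1.83), Sdf2l1 (1.81), Manf (1.66), Creb3l2 (1.25) and Cry1 (0.99), and negative for Nr1d1 (-3.11), Nr1d2 (-1.56) and Slc13a3 (-0.96), on the log2 scale.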

How the results depend on the processing

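Of the 1588 genes called in set 2 (1364 higher, 224 lower), other settings gave 780 (409 and 371) with median-of-ratios scaling, 827 (413 and 414) with quantile normalization, 913 (777 and 136) in a fit to the set 2 libraries alone, 3775 (3174 and 601) with array weights, and 860 (459 and 401) without both libraries that stand apart and with median-of-ratios scaling. On a TPM scale, chosen after seeing the data, 2058 were higher, and 880 on that scale without the major urinary proteins. Leaving out 1 library gave 972 to 1734 called, 821 to 1522 higher and 146 to 261 lower. The 16 genes that differed between the sets were 6 without the filter on low values, 9 with a mean FPKM of at least 5, 341 with array weights, 35 without both libraries and with median-of-ratios scaling, and 6 to 19 without 1 library. The cause of these changes was not tested. With a replicate block (the number in the titles as a term, set 2 libraries only) 70 genes were called, 51 higher and 19 lower. The labels name nothing that same-numbered libraries share beyond the number. Their deviations correlated at -0.604 to 0.108, and such values cannot settle whether they have a source in common.

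No named gene changed sign past the threshold. Of the 127 named genes called, 127 stayed called with a pseudocount of 0.1 or without both libraries, 111 with median-of-ratios scaling, 114 with quantile normalization and 115 in set 2 alone. With the replicate block 36 stayed called, and Loxl2, Cyp17a1 and Mup17 were among those lost. Genes named in a list only had been chosen to keep their call when any single library was left out, apart from Dnajc3. The count without both libraries is therefore partly set by that choice and does not measure how stable the calls are. Among all calls, 1034 of the 1364 higher and 179 of the 224 lower genes were kept without both libraries. Beside losses given above, quantile normalization ended the calls of Agpat5, Oasl1 and Ifi44, and the TPM scale those of Slc25a17, Cat and Ugdh. Leaving out both libraries with median-of-ratios scaling also ended those of Trib3, Oit3, Colec11, Col4a2, Nid1 and Sparc. Depth is not known from FPKM, and low genes were not tested.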

Other observations

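The predicted gene Gm8210, chosen after its values were seen, fell into separate levels within L2d13. Replicates 1, 2 and 3 held 119.6, 129 and 188 FPKM and replicates 4, 5 and 6 held 0.84, 0.8 and 1.19, while the WT libraries ran from 0.46 to 1.8. Its log2 difference of 3.21 ± 1.19 was not called in set 2 (limma adjusted p = 0.0677). In set 4 it reached 88.7 FPKM in WT and 1.55 in L2d13, with medians of 1.09 and 0.685.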
